A study of Mus musculus with 14 samples.

Results

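The 44 genes described here encode the actin cytoskeleton and the adhesions that tie it to the matrix. Muscle forms, such as Tpm1, Flnc and the Z-disc scaffold Pdlim5, are among the 44. The list of symbols was chosen with earlier results of these data known, and was matched by Ensembl ID through GENCODE vM21. The shares of calls given here therefore describe this list and are no independent test of it. All 44 of 44 were found among 54446 genes in the table and passed the filter on low counts that left 17987 genes. In YAP5SA hearts edgeR called 19 of the 44 higher than in Control hearts and 0 lower, against 5.69% of all genes tested that were called higher and 4.17% called lower (9.86% in all), while DESeq2 called 21 higher and 1, Actg1, lower, against 8.39% and 8.02% of all genes. In MEF2A hearts edgeR called 0 of the 44, against 0.0167% of all genes. In hearts with both viruses 2 of the 44 were called higher than in Control hearts, against 1.36% of all genes called in either direction, and the same 2 with 3 more were called higher than in MEF2A hearts, against 2.32%.

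RNA was measured in cardiomyocyte-enriched nuclei (PCM1 enrichment) of hearts from wild-type ICR mice collected at postnatal day 12. YAP5SA_MEF2A mice (2 libraries) had been injected intraperitoneally at day 7 with both AAV9:cTnT-YAP5SA and AAV9:cTnT-hMEF2A, YAP5SA mice (3 libraries) and MEF2A mice (4 libraries) with 1 of them, each virus at 1E11 genome copies, and Control mice (5 libraries) with no virus. YAP5SA is a form of the Hippo pathway effector YAP with serine sites of its inhibiting kinases replaced, MEF2A is a muscle transcription factor, and the cTnT promoter drives both in cardiomyocytes. Because Controls had no virus, an effect of the vector and of the transgene cannot be told apart, and because the labels do not say that libraries of a group came from separate animals, the p-values speak only of differences among these libraries, which may be technical.

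Actin monomers made by Actb and Actg1 assemble into filaments that nonmuscle myosin pulls on and that actinins and filamins crosslink. Integrins span the membrane, and talin, vinculin, zyxin and paxillin join them to actin in focal adhesions. Tension on this system is known to control YAP, and YAP with its TEAD partners, like SRF with its cofactors of the MRTF family, is known to bind genes of the system.

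Total counts were between 16171068 and 24027622 a library. Levels are given as CPM, counts scaled to a common library size after TMM. Differences are log2 fold changes from edgeR's quasi-likelihood test, fitted to the 14 libraries with terms for group and batch. Their standard error (SE) was derived as the absolute log2 fold change over the square root of the test's F statistic. Genes with a p under 0.05 after Benjamini-Hochberg adjustment over the 17987 genes are referred to as called, and as higher or lower, risen or fallen. Mitochondrially encoded genes took 32.2% of the counts in YAP5SA 3, 60.7% in Control 1 and 67.5% in Control 2, and between 3.8% and 23.2% in the other 11 libraries. By their sex-linked transcripts the 2 YAP5SA_MEF2A libraries were female and the 3 YAP5SA libraries male, and both YAP5SA_MEF2A libraries were in batch 1. Controls 1 to 3 and MEF2A 4 were male, and Controls 4 and 5 and MEF2A 1 to 3 were female, so sex was unbalanced in every comparison. The 8 marker genes of cardiomyocytes summed to 35735 and 40126 CPM in YAP5SA_MEF2A hearts, 25626 to 38308 CPM in YAP5SA hearts, 78283 to 79716 CPM in MEF2A hearts and 48320.2 to 81286 CPM in Control hearts, so the labelled cell type was present in every library. In such bulk nuclei, fewer nuclei of a type and less RNA per nucleus cannot be told apart.

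Markers of other cell types were unequal between libraries. The 8 macrophage markers summed to 161, 74.5 and 734 CPM in YAP5SA 1, 2 and 3, against 49.2 to 153 CPM in Control hearts, and the 8 fibroblast markers summed to 1775, 1733 and 3083 CPM in YAP5SA 1, 2 and 3, against 1264 to 2163 CPM in Control hearts. Neither defining macrophage marker was at 0, with Cd68 at 15.9 ± 14.3 CPM and Csf1r at 108 ± 111 CPM in YAP5SA hearts (SD, n = 3), against 5.01 ± 3.07 CPM and 31.3 ± 16.9 CPM in Control hearts (SD, n = 5). YAP5SA 3 was above every Control library for both lists, YAP5SA 1 was above them for the macrophage markers, and YAP5SA 2 was within the Control range for both. The 8 smooth muscle and pericyte markers summed to 1403, 660.1 and 1135 CPM in YAP5SA 1, 2 and 3, against 482 to 691 CPM in Control hearts, so that here too YAP5SA 1 and 3 were above every Control library and YAP5SA 2 was not. Epicardial markers summed to 118 to 126 CPM in YAP5SA hearts and 73.4 to 114 CPM in Control hearts, and lymphocyte ones to 5.86 to 16.4 CPM in YAP5SA hearts and 5.21 to 11.1 CPM in Control hearts. Endothelial markers summed to 168 to 354 CPM in YAP5SA hearts and 307 to 697 CPM in Control hearts, and erythroid ones to 51.3 to 325 CPM in YAP5SA hearts and 155 to 450 CPM in Control hearts. In YAP5SA against Control all 8 macrophage markers had a positive log2 fold change, with a median of 1.71 and 5 of them at an unadjusted p under 0.05, and 1 was called higher (Mrc1). The 8 fibroblast markers had a median of 0.41, with 5 positive and 0 called. The 8 smooth muscle and pericyte markers had a median of 0.04, with 5 positive and 3 negative, though their sum was higher in YAP5SA 1 and 3. The 5 epicardial markers had a median of -0.08, with 2 positive and 3 negative. Called higher were 1 of 8 smooth muscle and pericyte markers (Acta2) and 1 of 5 epicardial markers (Wt1), while 4 of 8 endothelial markers and 3 of 8 cardiomyocyte markers were called lower. Among all genes tested, 5.69% were called higher and 4.17% lower. The part of these cells in the differences below was not tested.

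Promoter sequences of the members were examined because YAP acts through TEAD factors, and because SRF is known for binding the CArG box of actin-related genes. RefSeq windows of 300 bases on GRCm38.p6, 250 before to 50 after a start site, were matched for 36 of the 44 members. The letters of the TEAD core, CATTCC or its reverse complement GGAATG, were found in 11 of 36 members (30.6%), in 5 of 17 members called in YAP5SA against Control (29.4%) and in 16.6% of all 27025 genes with a window. A CArG box was found on either strand in 5 of 36 members (13.9%), namely Actg1, Myl9, Cnn2, Vcl and Lima1, in 2 of 17 called members (11.8%) and in 1.81% of all genes with a window. A match describes these letters and is no evidence of binding. The windows of 3 called members and of Actg1, which was not called, are shown 5′ to 3′ with the CArG box and the TEAD letters in capitals. They lie at chr10:79988350-79988649 on the plus strand for Cnn2, chr14:20929148-20929447 on the plus strand for Vcl, chr7:28962283-28962582 on the minus strand for Actn4 and chr11:120348446-120348745 on the minus strand for Actg1.
Cnn2: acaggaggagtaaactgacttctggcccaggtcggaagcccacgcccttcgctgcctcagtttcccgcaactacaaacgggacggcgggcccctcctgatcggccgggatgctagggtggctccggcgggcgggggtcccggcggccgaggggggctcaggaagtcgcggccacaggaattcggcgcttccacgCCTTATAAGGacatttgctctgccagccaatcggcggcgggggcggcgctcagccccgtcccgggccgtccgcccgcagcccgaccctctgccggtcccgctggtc
Vcl: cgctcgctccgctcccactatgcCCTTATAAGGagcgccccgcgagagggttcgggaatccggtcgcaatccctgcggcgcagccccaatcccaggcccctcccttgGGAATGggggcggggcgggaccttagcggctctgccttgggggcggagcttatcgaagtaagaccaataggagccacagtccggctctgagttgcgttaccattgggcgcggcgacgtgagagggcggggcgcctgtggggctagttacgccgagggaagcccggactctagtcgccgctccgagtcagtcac
Actn4: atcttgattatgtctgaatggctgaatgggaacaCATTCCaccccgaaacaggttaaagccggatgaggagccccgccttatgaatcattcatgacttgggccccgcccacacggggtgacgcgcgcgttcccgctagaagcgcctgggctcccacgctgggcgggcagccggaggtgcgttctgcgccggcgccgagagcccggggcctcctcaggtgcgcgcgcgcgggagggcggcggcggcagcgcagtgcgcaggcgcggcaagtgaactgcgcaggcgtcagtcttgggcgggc
Actg1: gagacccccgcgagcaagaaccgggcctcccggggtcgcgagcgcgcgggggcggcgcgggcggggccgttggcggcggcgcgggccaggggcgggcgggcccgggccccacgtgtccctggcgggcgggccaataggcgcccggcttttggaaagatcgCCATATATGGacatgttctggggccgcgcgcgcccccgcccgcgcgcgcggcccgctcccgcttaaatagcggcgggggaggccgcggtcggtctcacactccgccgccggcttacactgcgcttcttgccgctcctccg
Cnn2 and Vcl hold the same CArG letters, Vcl also holds the TEAD letters, Actn4 holds only the TEAD letters, and Actg1 holds a CArG box of other letters. Members with the same letters in this window thus included both called and uncalled genes.

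YAP5SA against Control asked which of the genes changed with active YAP alone. The median log2 fold change of the 44 members was 0.93, against 0.06 over all genes tested, with 38 members positive and 6 negative. Tagln had 0 counts in every Control library, and with Tagln set at its lower bound the members' median was 0.87. With libraries scaled by their totals alone, the median of all genes was 0.69 and that of the members 1.58, and the members exceeded all genes by 0.88 under both scalings. Every YAP5SA library lay above every Control library for 12 members, 11 of them called, against 8.51% of all genes, and 0 members had every YAP5SA library below every Control library, against 5.13% of all genes. In the 3 YAP5SA libraries the members' median difference to the Control mean was 1.12, 0.19 and 1.25 in YAP5SA 1, 2 and 3 on the log2 CPM scale, so YAP5SA 2 lay closest to the Controls. YAP5SA 2 was the lowest of the 3 libraries for 34 of the 44 members and for all 19 called members.

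**Figure D1:**
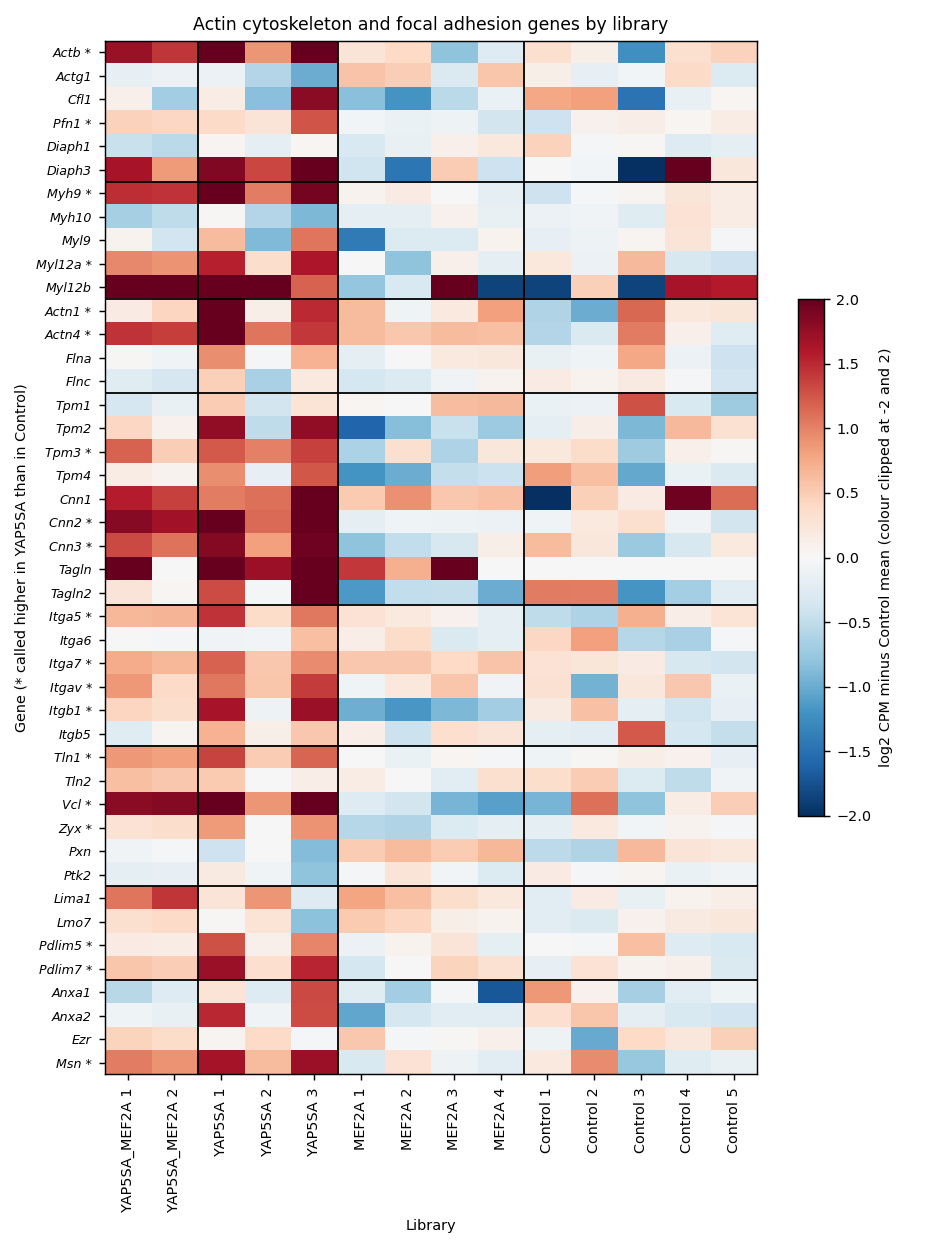
Log2 CPM of the 44 genes (rows, in blocks by role) in each of the 14 libraries (columns), minus the mean of the 5 Control libraries, with colour clipped at -2 and 2 and an asterisk at the 19 genes called higher in YAP5SA than in Control. YAP5SA 1 and YAP5SA 3 stand out in red, with members' medians of 1.12 and 1.25, against 0.19 in YAP5SA 2.

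Among the cytoplasmic actins and the proteins that turn actin over, 2 of 6 rose in YAP5SA hearts. Actb (ENSMUSG00000029580, chr5:142903115-142906754 on GRCm38), which encodes beta-actin, had 1007, 375 and 1020.5 CPM in YAP5SA 1, 2 and 3, against 257, 221, 87.3, 256 and 283 CPM in Controls 1 to 5. All 3 YAP5SA libraries lay above all Controls, and YAP5SA 2 was the lowest of them. The log2 fold change was 1.83 ± 0.39 (adjusted p = 0.0116). Pfn1, profilin, which loads actin monomers for polymerisation, had 105, 96.5 and 192 CPM in YAP5SA 1, 2 and 3, against 60.1, 85.7, 88.7, 82.7 and 89.3 CPM in Controls 1 to 5. Its groups did not overlap, YAP5SA 3 being the highest library, with a log2 fold change of 0.73 ± 0.20 (adjusted p = 0.0245). The other cytoplasmic actin gene, Actg1, was not called by edgeR and its log2 fold change was negative. It had 915, 662 and 495 CPM in YAP5SA 1, 2 and 3, against 1072, 881, 954, 1286 and 820.1 CPM in Controls 1 to 5, so that YAP5SA 1 lay among the Controls (log2 fold change -0.63 ± 0.24, adjusted p = 0.105). DESeq2 called Actg1 lower in YAP5SA hearts (-0.64 ± 0.24, adjusted p = 0.0442), limma-voom did not (adjusted p = 0.0644), and with libraries scaled by their totals alone its log2 fold change was 0.01 ± 0.49. Cfl1, the filament-severing cofilin, had a log2 fold change of 0.52 ± 0.61, and the formins Diaph1 and Diaph3, which elongate filaments, -0.05 ± 0.21 and 1.32 ± 1.02.

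Actb and Actg1 have nearly the same coding sequence, so how the authors' counting treated reads that match both, or copies of them in the genome, could change their counts. Per kilobase of exon, Actg1 was at 259.9 CPM and Actb at 299 CPM in YAP5SA hearts, against 377 CPM for Actg1 and 82.4 CPM for Actb in Control hearts, as group means. The ratio of Actb to Actg1 counts per exon base, taken within a library, was 0.762 and 0.598 in YAP5SA_MEF2A 1 and 2, 1.09, 0.562 and 2.04 in YAP5SA 1, 2 and 3, 0.117 to 0.192 in MEF2A hearts and 0.0907 to 0.342 in Control hearts. Every library with YAP5SA thus had a higher ratio than every library without it. The ratio was one of 8 pairs of related members compared, and 2 of the 8 separated the libraries in this way; the pairs shown were picked after their values were seen and are not tested.

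Nonmuscle myosin members gave 2 of 5 calls, both higher in YAP5SA hearts. Myh9 (ENSMUSG00000022443, chr15:77760587-77842175), the heavy chain of nonmuscle myosin IIA, had 736, 282 and 527 CPM in YAP5SA 1, 2 and 3, against 105, 136, 145, 166 and 154 CPM in Controls 1 to 5. The groups were apart by more than the whole range of the Controls, and the log2 fold change was 1.90 ± 0.24 (adjusted p = 1.0e-04). Myl12a, a regulatory light chain of this motor, had 121, 52.6 and 125 CPM in YAP5SA 1, 2 and 3, against 47.5, 37.7, 64.3, 32.9 and 30.6 CPM in Controls 1 to 5. YAP5SA 2 lay below Control 3, and the log2 fold change was 1.27 ± 0.29 (adjusted p = 0.0105). Of Myl12a's exon bases 13.8% are shared with Myl12b, so its count is uncertain. Myh10, the heavy chain of nonmuscle myosin IIB, was not called. It had 93.9, 61.3 and 49.4 CPM in YAP5SA 1, 2 and 3, against 85.4, 87.5, 77.7, 113 and 102 CPM in Controls 1 to 5, with overlapping groups and a log2 fold change of -0.45 ± 0.22 (adjusted p = 0.198). Myl9, a second regulatory light chain, had a log2 fold change of 0.56 ± 0.30. Myl12b had at most 100 counts in a library and a log2 fold change of 2.30 ± 1.41, and 26.7% of its exon bases are shared with a second gene entry of the same name.

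Within each library the ratio of Myh9 to Myh10 counts per exon base was 5.39 and 4.72 in YAP5SA_MEF2A 1 and 2, 6.34, 3.72 and 8.64 in YAP5SA 1, 2 and 3, 1.14 to 1.56 in MEF2A hearts and 0.99 to 1.51 in Control hearts. The libraries with YAP5SA were again apart from all others. The talin pair gave no such gap, with Tln1 over Tln2 at 3.39 and 3.42 in YAP5SA_MEF2A hearts, 4.01 to 5.8 in YAP5SA hearts, 2.19 to 3.42 in MEF2A hearts and 2.0 to 4.29 in Control hearts.

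**Figure D2:**
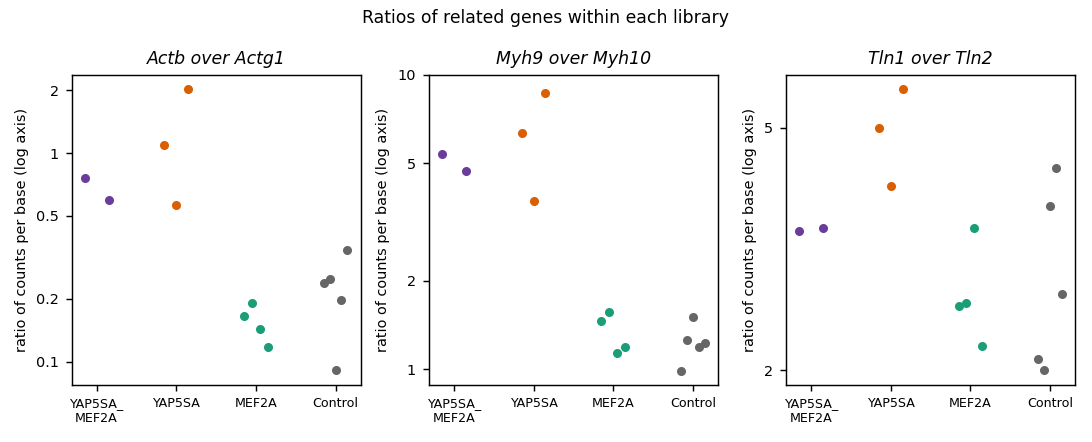
Ratio of counts per exon base of 3 pairs of related genes within each library (log axis, 1 point a library, groups along the horizontal axis). Actb over Actg1 is 0.562 or higher in the libraries with YAP5SA and 0.342 or lower in the others, Myh9 over Myh10 is 3.72 or higher against 1.56 or lower, and Tln1 over Tln2 overlaps.

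Both actinin members rose in YAP5SA hearts and neither filamin was called. Actn4 (ENSMUSG00000054808, chr7:28893248-28962340), a nonmuscle alpha-actinin that bundles actin filaments, had 1554, 759.7 and 963 CPM in YAP5SA 1, 2 and 3, against 241, 296, 745, 389 and 305 CPM in Controls 1 to 5. The groups did not overlap, though Control 3 came close to YAP5SA 2, and the log2 fold change was 1.60 ± 0.31 (adjusted p = 0.00434). Actn1, the other nonmuscle alpha-actinin, had 675, 169 and 437 CPM in YAP5SA 1, 2 and 3, against 102, 78.2, 344, 181 and 183 CPM in Controls 1 to 5. YAP5SA 2 lay below Controls 3, 4 and 5, and the log2 fold change of 1.57 ± 0.46 was just past the threshold (adjusted p = 0.0497). The call of Actn1 was lost under 18 of 27 alternatives. Flna, filamin A, an actin crosslinker that also binds integrin tails, had 2016, 1039.6 and 1722 CPM in YAP5SA 1, 2 and 3, against 958, 999, 1808, 976 and 801 CPM in Controls 1 to 5, and only Control 3 lay among the YAP5SA libraries (log2 fold change 0.60 ± 0.25, adjusted p = 0.139). Flnc, the muscle filamin, had 563, 257 and 461 CPM in YAP5SA 1, 2 and 3, against 452, 425, 458, 391 and 309.5 CPM in Controls 1 to 5, with a log2 fold change of 0.08 ± 0.22.

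Of 9 tropomyosin, calponin and transgelin genes, whose products bind along actin filaments, 3 rose in YAP5SA hearts. Cnn2 (ENSMUSG00000004665, chr10:79988584-79996062), the calponin of many non-muscle cells, had 424, 145 and 269 CPM in YAP5SA 1, 2 and 3, against 62.6, 75.4, 81.9, 62.5 and 50.8 CPM in Controls 1 to 5. YAP5SA 2 too lay above every Control, and Cnn2 had the smallest adjusted p among the 44 members, with a log2 fold change of 2.06 ± 0.25 (adjusted p = 7.5e-05). Cnn3, acidic calponin, had 74, 36.3 and 79 CPM in YAP5SA 1, 2 and 3, against 31.9, 24.1, 12.3, 16.5 and 23.6 CPM in Controls 1 to 5. Its groups did not overlap either (log2 fold change 1.55 ± 0.30, adjusted p = 0.0041), and 17.7% of its exon bases lie opposite another gene entry. Tpm3, a tropomyosin with cytoskeletal forms, had 285, 243 and 314 CPM in YAP5SA 1, 2 and 3, against 139.7, 157, 74.1, 129.6 and 123 CPM in Controls 1 to 5. All YAP5SA libraries lay above the Controls, with a log2 fold change of 1.15 ± 0.26 (adjusted p = 0.0108).

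Tpm1, the main striated muscle tropomyosin of the heart, was not called. It had 2614, 1422 and 2229 CPM in YAP5SA 1, 2 and 3, against 1682, 1687, 4414, 1481 and 1121 CPM in Controls 1 to 5, with Control 3 the highest of all (log2 fold change 0.15 ± 0.35). Tpm2, a tropomyosin of smooth and slow skeletal muscle, had 158, 32.4 and 158 CPM in YAP5SA 1, 2 and 3, against 40, 50.6, 24.7, 72.3 and 56.8 CPM in Controls 1 to 5. YAP5SA 2 lay within the Controls and the other YAP5SA libraries far above them (log2 fold change 1.33 ± 0.43, adjusted p = 0.0726). Tagln2, a transgelin of non-muscle cells, had a log2 fold change of 1.15 ± 0.51, Cnn1, the smooth muscle calponin, of 1.14 ± 0.73 and Tpm4, a cytoskeletal tropomyosin, of 0.65 ± 0.38, and none was called. Tagln, a smooth muscle marker, had 16, 5 and 7 counts in YAP5SA 1, 2 and 3, against 0 counts in all 5 Controls; at a floor of 3 counts a Control library it was at least 1.86-fold higher. Of Tagln's exon bases 62.4% lie opposite an antisense gene, and without strand its few counts cannot be assigned.

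**Figure D3:**
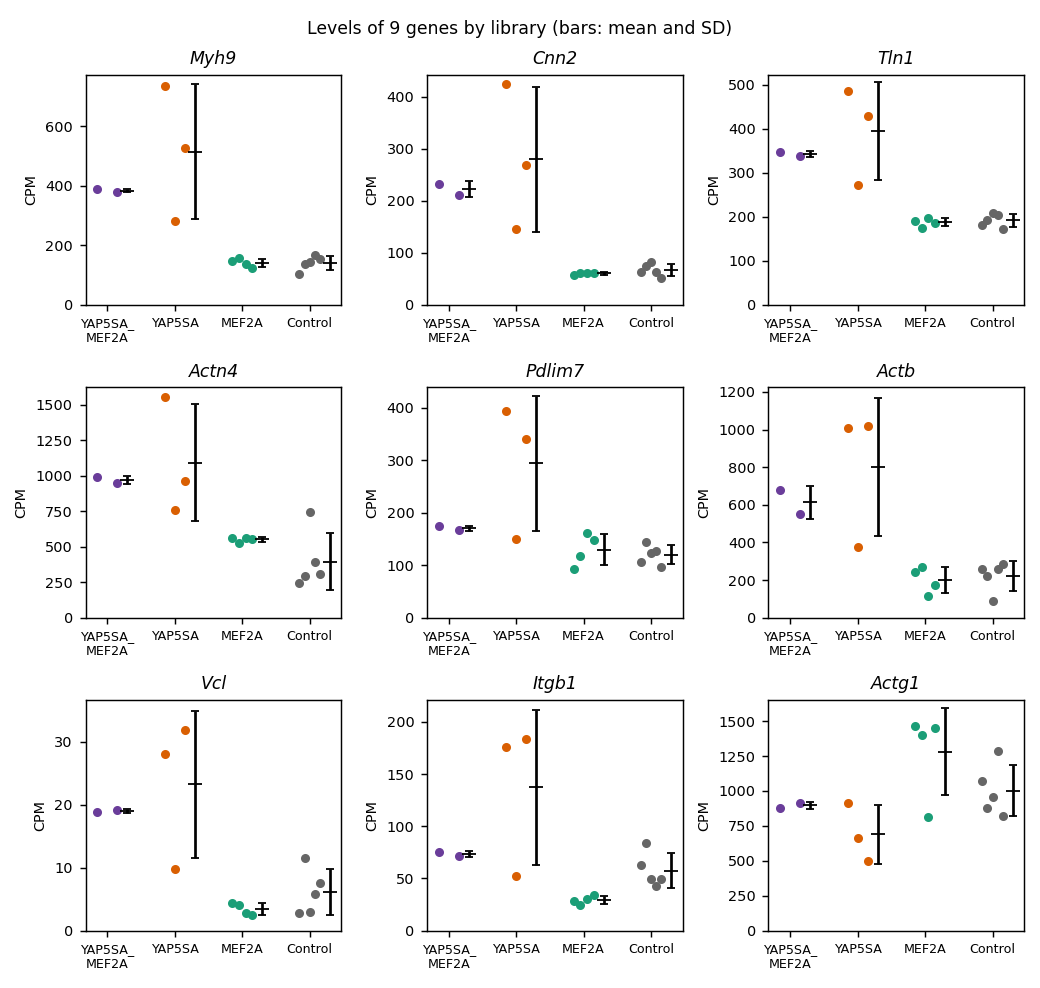
CPM of 9 genes in each library (points, scale from 0) with the mean and SD of each group (bars). For Myh9, Cnn2, Tln1, Actn4, Pdlim7 and Actb all YAP5SA libraries lie above all Control libraries, while for Vcl, Itgb1 and Actg1 YAP5SA 2 or another library overlaps the Controls.

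Integrins gave 4 calls of 6 members, all higher in YAP5SA hearts. Itga7, the laminin-binding alpha chain typical of muscle, had 837, 537 and 711 CPM in YAP5SA 1, 2 and 3, against 451, 438, 413, 296 and 286 CPM in Controls 1 to 5. The groups did not overlap, and the log2 fold change was 0.85 ± 0.19 (adjusted p = 0.00879). Itga5, the alpha chain of the main fibronectin receptor, had 514, 242 and 392 CPM in YAP5SA 1, 2 and 3, against 133, 123, 308, 208 and 229 CPM in Controls 1 to 5. Control 3 lay above YAP5SA 2, and the log2 fold change was 1.05 ± 0.28 (adjusted p = 0.0225). Itgb1, the beta chain that pairs with both of them, had 176, 51.8 and 184 CPM in YAP5SA 1, 2 and 3, against 62.9, 83.5, 49.2, 42.3 and 49.7 CPM in Controls 1 to 5. YAP5SA 2 lay within the Controls and the other YAP5SA libraries were above all of them (log2 fold change 1.26 ± 0.32, adjusted p = 0.0233). Itgav, an alpha chain that binds vitronectin and other ligands with the sequence RGD, had 20.2, 14.2 and 25.7 CPM in YAP5SA 1, 2 and 3, against 12, 4.96, 11.3, 14.2 and 8.82 CPM in Controls 1 to 5. Its lowest YAP5SA and highest Control library were nearly equal, with a log2 fold change of 1.06 ± 0.30 (adjusted p = 0.0328). Itgb5, a partner of Itgav, had 136, 91.2 and 123 CPM in YAP5SA 1, 2 and 3, against 73.8, 73.2, 197, 66 and 60.8 CPM in Controls 1 to 5, and Itga6, a second laminin-binding alpha chain, had 26.8, 27.2 and 42.7 CPM in YAP5SA 1, 2 and 3, against 37.6, 49.6, 18.9, 18 and 27.8 CPM in Controls 1 to 5. Neither was called, with log2 fold changes of 0.45 ± 0.33 for Itgb5 and 0.09 ± 0.27 for Itga6.

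Of 6 adaptors that join integrins to actin, 3 rose in YAP5SA hearts. Tln1 (ENSMUSG00000028465, chr4:43531519-43562691), the talin that activates integrins in most cells, had 485, 271 and 429 CPM in YAP5SA 1, 2 and 3, against 181, 193, 209, 203 and 171 CPM in Controls 1 to 5. The Controls were within a narrow range, all YAP5SA libraries were above it, and the log2 fold change was 1.07 ± 0.18 (adjusted p = 0.0013). Vcl, vinculin, which reinforces talin under tension, had 28, 9.82 and 31.8 CPM in YAP5SA 1, 2 and 3, against 2.72, 11.5, 2.98, 5.85 and 7.51 CPM in Controls 1 to 5. YAP5SA 2 lay below Control 2, and the log2 fold change was 1.92 ± 0.44 (adjusted p = 0.0111). Of Vcl's exon bases 25.5% lie opposite Ap3m1, so its count is uncertain. Zyx, zyxin, which gathers at strained filaments, had 137, 75.5 and 142 CPM in YAP5SA 1, 2 and 3, against 66.4, 86.9, 73.4, 79.7 and 74.4 CPM in Controls 1 to 5. YAP5SA 2 lay within the Controls, the log2 fold change was 0.68 ± 0.19 (adjusted p = 0.0321), and the call was lost under 12 of 27 alternatives. Pxn, paxillin, had 398, 535 and 291 CPM in YAP5SA 1, 2 and 3, against 372, 351, 831, 637 and 615 CPM in Controls 1 to 5, and Tln2, the talin of striated muscle and brain, had 182, 127 and 139 CPM in YAP5SA 1, 2 and 3, against 162, 181, 105, 88.9 and 120.2 CPM in Controls 1 to 5. Both overlapped and were not called, with log2 fold changes of -0.33 ± 0.27 for Pxn and 0.12 ± 0.20 for Tln2, and Ptk2, focal adhesion kinase, had one of -0.31 ± 0.19.

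LIM-domain proteins that bind actin gave 2 calls of 4 members. Pdlim7 (ENSMUSG00000021493, chr13:55495795-55513676), a scaffold with a PDZ and LIM domains, had 393, 149 and 339.6 CPM in YAP5SA 1, 2 and 3, against 106, 144, 124, 127 and 97.2 CPM in Controls 1 to 5. YAP5SA 2 was barely above Control 2, the other YAP5SA libraries were well above, and the log2 fold change was 1.34 ± 0.25 (adjusted p = 0.00267). Pdlim5, a related scaffold of the Z-disc, had 1069, 474 and 864 CPM in YAP5SA 1, 2 and 3, against 437, 433, 668, 368 and 359 CPM in Controls 1 to 5. Control 3 lay above YAP5SA 2, the log2 fold change was 0.85 ± 0.25 (adjusted p = 0.0365), and the call was lost under 14 of 27 alternatives. Lmo7, a protein of cell junctions, and Lima1, which stabilises filaments, were not called. Lmo7 had 1363, 1617 and 754 CPM in YAP5SA 1, 2 and 3, against 1156, 1094, 1417, 1519 and 1558 CPM in Controls 1 to 5, and Lima1 had 75.7, 117 and 53 CPM in YAP5SA 1, 2 and 3, against 54.2, 71.2, 57, 66.4 and 69.3 CPM in Controls 1 to 5. Both had their highest YAP5SA value in YAP5SA 2, unlike any called member, with log2 fold changes of -0.20 ± 0.24 for Lmo7 and 0.23 ± 0.22 for Lima1.

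Of the 4 membrane-linker members only Msn rose in YAP5SA hearts. Msn, moesin, ties actin to membrane proteins, and had 148, 72.4 and 153 CPM in YAP5SA 1, 2 and 3, against 53.5, 89.3, 27.6, 39.5 and 41.9 CPM in Controls 1 to 5. YAP5SA 2 lay below Control 2, and the log2 fold change was 1.30 ± 0.29 (adjusted p = 0.0114). Anxa2, a calcium-dependent membrane and actin binder, had 260.3, 87.1 and 226 CPM in YAP5SA 1, 2 and 3, against 115, 134, 79.5, 73.8 and 69.8 CPM in Controls 1 to 5. YAP5SA 2 lay within the Controls, and the log2 fold change of 1.01 ± 0.31 missed the threshold (adjusted p = 0.0546). Ezr, ezrin, had 48.9, 61.3 and 46.3 CPM in YAP5SA 1, 2 and 3, against 43.5, 23.3, 61.9, 55.3 and 65.7 CPM in Controls 1 to 5 (log2 fold change 0.15 ± 0.27), and Anxa1 had a log2 fold change of 0.53 ± 0.41.

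The calls rested on YAP5SA 1 and YAP5SA 3 to unequal degrees. Without YAP5SA 3, the library with high macrophage and fibroblast markers, 5 members were called, without YAP5SA 1 there were 8, and without YAP5SA 2 there were 24. The share of all genes called in these fits is not given here, so the counts do not set the members apart from other genes. The 5 genes whose call held with each of the 14 libraries left out in turn were Myh9, Actn4, Cnn2, Tln1 and Pdlim7. Without Controls 1 and 2, which had the highest mitochondrial shares, 18 members were called higher, 14 of them among the 19, and Pxn was called lower. Actb, Actn1, Actn4, Itga5 and Pdlim5 lost their call there, Actn4 with a log2 fold change of 1.13 (edgeR adjusted p = 0.0615). With those Controls and YAP5SA 3 left out, edgeR called 0 members, while 15 were higher and 0 lower at an unadjusted p under 0.05. In that fit no YAP5SA library shared a batch with a Control, and the batch term rested on the MEF2A libraries alone. The fit thus holds no comparison of YAP5SA with Control within a batch. The median log2 fold change of the 44 members was 0.84 there, against -0.02 over all genes. Of the 19 called genes, 9 had a log2 fold change there at or above their value from all 14 libraries (Cnn3 at 2.23, Cnn2 at 2.17, Pdlim7 at 1.78 and Itgb1 at 1.55) and 10 had a smaller one (Pfn1 at 0.08, Itga5 at 0.33 and Actb at 0.9). With a term for sex in the model 16 of the 44 were called. The batch 1 Controls are Controls 1 and 2, with mitochondrial shares of 60.7% and 67.5%, against 3.8% and 6.77% in YAP5SA 1 and 2. Within batch 1, YAP5SA and this difference between libraries therefore cannot be told apart. Within batch 1 alone, with 2 libraries a group, 33 of the 44 members had a positive log2 fold change, against 51.2% of all genes tested there. The members' median was 0.59, against 0.03 over all genes. Of the members 7 were called, and Pdlim7 was not among them (edgeR adjusted p = 0.106). In batch 2 the single YAP5SA library, YAP5SA 3, lay above all 3 Controls of that batch for 32 of the 44 members, against 35.8% of all genes, with a median log2 ratio of 1.13 against 0.04; this is the library with the highest macrophage and fibroblast sums, and their part was not tested.

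**Figure D4:**
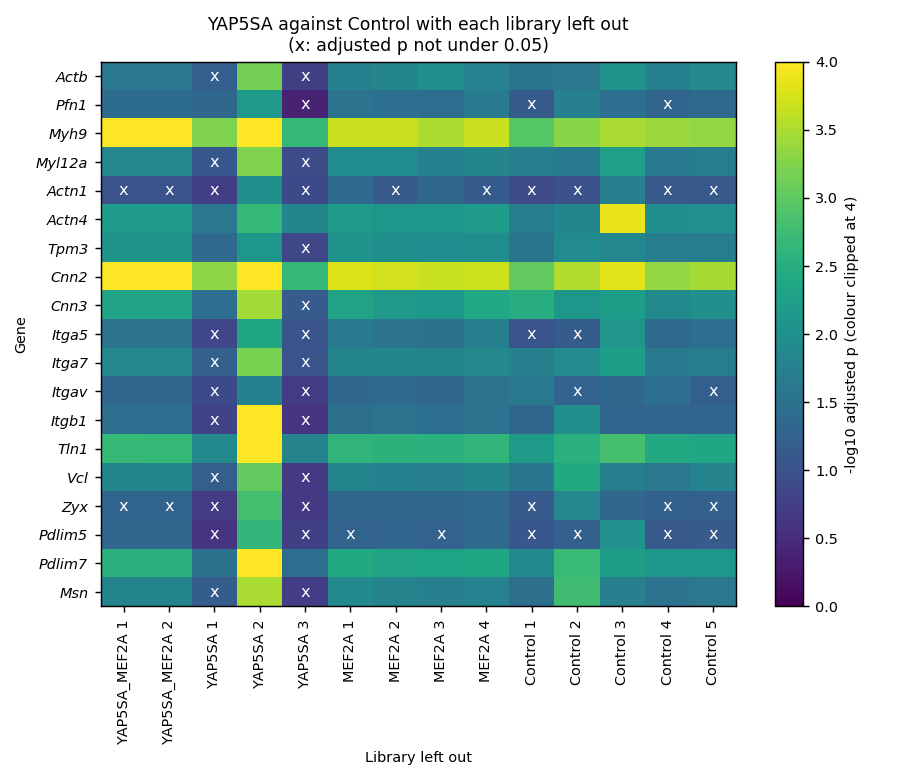
Negative log10 of the adjusted p in YAP5SA against Control for the 19 called genes (rows) with each of the 14 libraries left out (columns), colour clipped at 4, and an x where a call was lost. Columns without YAP5SA 1 and without YAP5SA 3 hold 11 and 14 lost calls, the column without YAP5SA 2 holds 0, and Myh9, Actn4, Cnn2, Tln1 and Pdlim7 keep every call.

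Other genes of the same pathways, on lists that hold no member, were also examined in YAP5SA against Control. Over all genes tested, 5.69% were called higher and 4.17% lower. Of 21 other focal adhesion adaptors tested 7 rose and 1 fell, and 17 had a positive log2 fold change. Tns3, a tensin that binds integrin tails, averaged 242 ± 71.3 CPM in YAP5SA hearts (SD, n = 3) and 46 ± 18.6 CPM in Control hearts (SD, n = 5), with a log2 fold change of 2.53 ± 0.27 (adjusted p = 2.8e-05), while Parvb, a parvin, fell (log2 fold change -0.91 ± 0.18, adjusted p = 0.00449). Of 13 other integrin genes, 6 positive and 7 negative, only Itga3, a laminin-binding alpha chain, rose, averaging 272 ± 19 CPM in YAP5SA hearts (SD, n = 3) and 84.4 ± 23.6 CPM in Control hearts (SD, n = 5). That 1 call is 7.69% of the list, near the share of all genes. Of 14 genes of actin capping, severing and monomer binding 3 rose (Cap1, Wdr1 and Capza2, log2 fold changes 0.79 to 1.04) and 0 fell, with 12 positive and 2 negative, and of 17 genes of the Arp2/3 complex and its activators 2 rose (Arpc5 at 0.89 and Cyfip1 at 0.67) and 0 fell, with 12 positive and 5 negative.

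On a list of 8 genes drawn up around SRF and its MRTF cofactors, not all of them SRF cofactors, 3 rose in YAP5SA hearts. Mrtfa, an actin-regulated SRF cofactor, averaged 43.6 ± 6.63 CPM in YAP5SA hearts (SD, n = 3) and 27.5 ± 5.53 CPM in Control hearts (SD, n = 5), with a log2 fold change of 0.73 ± 0.20 (adjusted p = 0.0261). Vgll3, a TEAD cofactor placed on this list, averaged 34.9 ± 19.6 CPM in YAP5SA hearts (SD, n = 3) and 0.565 ± 0.494 CPM in Control hearts (SD, n = 5), and the third was Fhl1 (log2 fold change 2.30 ± 0.40). Of 14 genes listed as sarcomeric counterparts of the members 1 rose, the smooth muscle marker Acta2 (log2 fold change 3.03 ± 0.52). The 3 that fell were Ttn, Tnni3 and Myh6, and the median log2 fold change of the 14 was -0.46. The sarcomeric list therefore had a median of the opposite sign to the members' 0.93.

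MEF2A against Control asked the same of MEF2A alone. edgeR called 0 of the 44 members and 0.0167% of all genes, and DESeq2 and limma-voom also called 0 members, while 4 members were higher and 4 lower at an unadjusted p under 0.05. The members' median log2 fold change was -0.05, against 0.02 over all genes. The 4 MEF2A libraries had members' medians of -0.11 to 0.0 relative to the Control mean, on the log2 CPM scale, against -0.06 to 0.08 in the 5 Control libraries.

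Single members of MEF2A hearts still lay outside the Control range. Itga7 had 538, 536, 485 and 548 CPM in MEF2A 1 to 4, all above the Control maximum of 451 CPM (log2 fold change 0.48 ± 0.17, adjusted p = 0.61). Lima1 had 109.8, 96.3, 80.4 and 73.2 CPM in MEF2A 1 to 4, all above the Control maximum of 71.2 CPM (0.44 ± 0.19, adjusted p = 0.657). In the other direction, Itgb1 had 28.5, 24.8, 30 and 34.3 CPM in MEF2A 1 to 4, all below the Control minimum of 42.3 CPM (-0.97 ± 0.31, adjusted p = 0.602), and Zyx had 51.3, 49.7, 62.9 and 65.9 CPM in MEF2A 1 to 4, below the Control minimum of 66.4 CPM. Such separation was seen in 1.88% of all genes above and 0.945% below, and none of these members passed the test.

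YAP5SA_MEF2A against Control gave 2 calls of 44 members, both higher, against 1.16% of all genes called higher. Myh9 had 388 and 379.8 CPM in YAP5SA_MEF2A 1 and 2, against 105 to 166 CPM in Controls, with a log2 fold change of 1.5 ± 0.29 (adjusted p = 0.0104), and Cnn2 had 233 and 212 CPM in YAP5SA_MEF2A 1 and 2, against 50.8 to 81.9 CPM in Controls (1.71 ± 0.30, adjusted p = 0.00534). For both genes the YAP5SA_MEF2A libraries lay above every Control. The median log2 fold change of the 44 members was 0.45, against 0.01 over all genes, in a comparison that shares its Control libraries with YAP5SA against Control. Both libraries lay above every Control for 17 members, against 14.9% of all genes, and below every Control for 3 members, Myh10, Ptk2 and Diaph1, against 8.43%. Tln1 had 347 and 338 CPM in YAP5SA_MEF2A hearts and 171 to 209 CPM in Controls (0.89 ± 0.22, adjusted p = 0.0509), and Lima1 had 133 and 169.8 CPM in YAP5SA_MEF2A hearts and 54.2 to 71.2 CPM in Controls (1.04 ± 0.26, adjusted p = 0.0517), neither past the threshold.

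The 2 calls depended on single libraries and on the model. Myh9 lost its call without Control 1, without YAP5SA_MEF2A 1 and without YAP5SA_MEF2A 2, and with a term for sex, and Cnn2 lost its call without YAP5SA_MEF2A 1. Without Controls 1 and 2 both calls were lost and Cnn3 was the 1 member called. In that fit no Control shared a batch with a YAP5SA_MEF2A library. DESeq2 and limma-voom called 5 members each, adding Actn4, Tln1 and Lima1. With 1 library left out, 0 to 5 members were called: 0 without YAP5SA_MEF2A 1, 1 without YAP5SA_MEF2A 2 or Control 1, 4 without YAP5SA 1, YAP5SA 2 or Control 3 and 5 without YAP5SA 3. Shares of all genes called in these alternative fits are not given here, so the counts do not set the members apart. Of the related genes, Tns3 (log2 fold change 2.35 ± 0.32), Itga3 (1.54 ± 0.31), Ptk2b (1.75 ± 0.41) and Vgll3 (5.40 ± 0.73) were called higher in YAP5SA_MEF2A hearts.

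**Figure D5:**
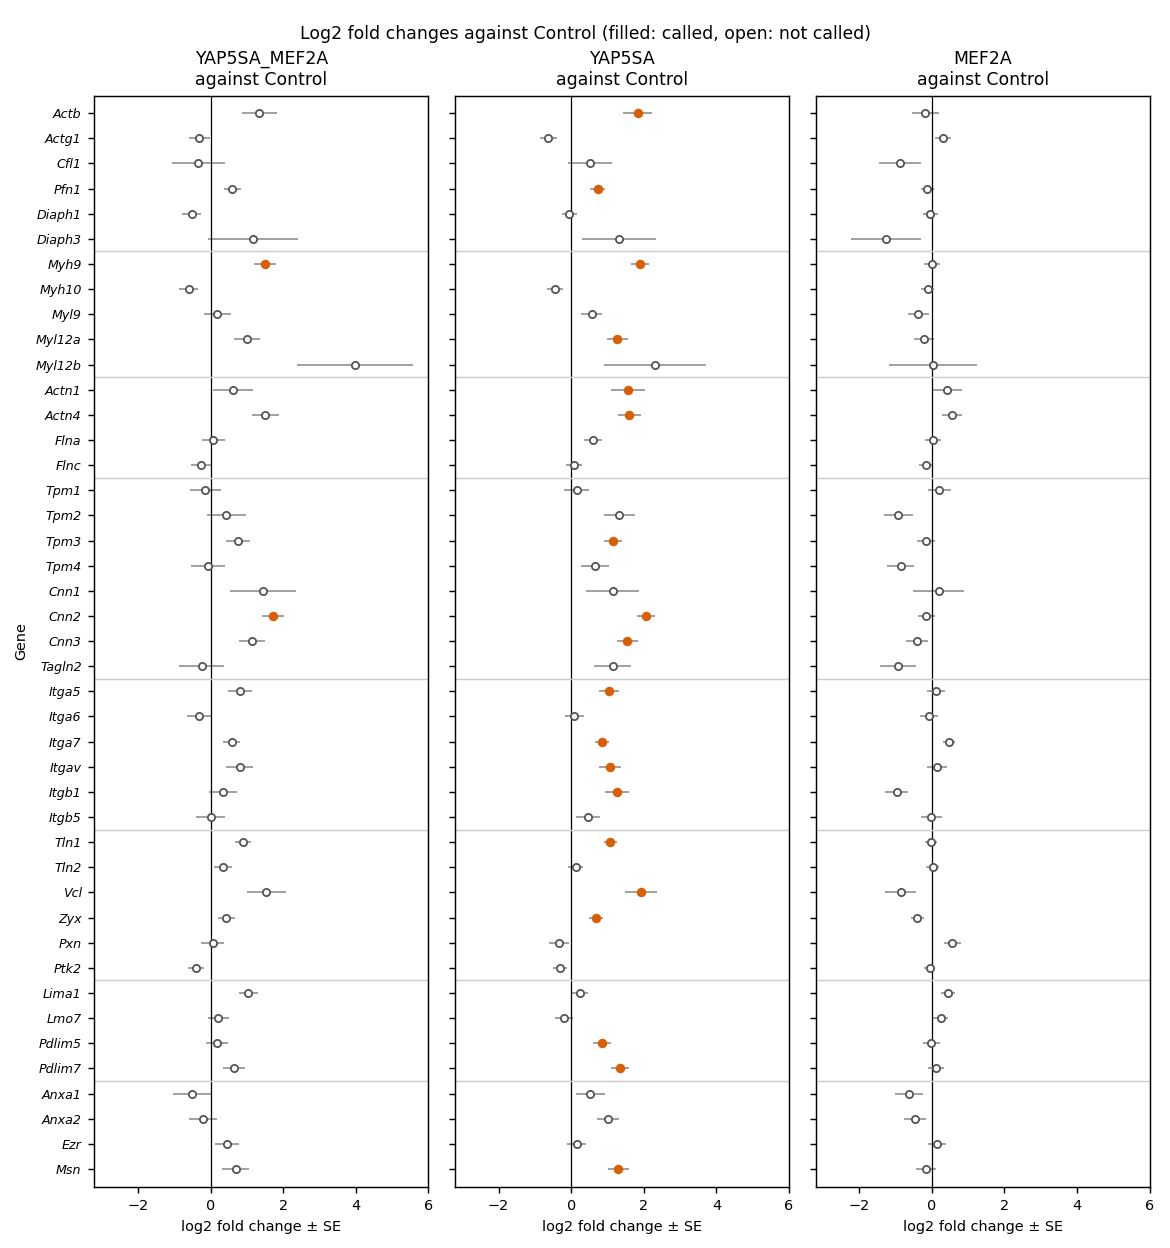
Log2 fold change and SE of 43 members in YAP5SA_MEF2A, YAP5SA and MEF2A hearts against the same Control libraries, with filled points for called genes and lines between roles. Tagln, at 0 counts in every Control, is left out. The medians over all 44 members are 0.45 in YAP5SA_MEF2A hearts, 0.93 in YAP5SA hearts and -0.05 in MEF2A hearts.

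YAP5SA_MEF2A against MEF2A, which sets YAP5SA against a background of MEF2A, gave 5 calls of 44 members, all higher, against 1.61% of all genes called higher and 0.706% called lower. Cnn2 had 233 and 212 CPM in YAP5SA_MEF2A 1 and 2, against 57.1, 61.8, 61.4 and 60.5 CPM in MEF2A 1 to 4 (log2 fold change 1.86 ± 0.31, adjusted p = 0.0027). Myh9 had 388 and 379.8 CPM in YAP5SA_MEF2A 1 and 2, against 146, 156, 138 and 122 CPM in MEF2A 1 to 4 (1.49 ± 0.29, adjusted p = 0.00958). Both genes were apart between the groups by far more than the spread within either. Vcl had 18.8 and 19.2 CPM in YAP5SA_MEF2A 1 and 2, against 4.41, 4.06, 2.74 and 2.43 CPM in MEF2A 1 to 4 (2.40 ± 0.54, adjusted p = 0.0258). Tln1 had 347 and 338 CPM in YAP5SA_MEF2A 1 and 2, against 191, 175, 197 and 186 CPM in MEF2A 1 to 4 (0.92 ± 0.22, adjusted p = 0.0354). These genes and Cnn3 (1.56 ± 0.39, adjusted p = 0.0415), with 51.2 and 43.6 CPM in YAP5SA_MEF2A 1 and 2, against 11.8, 14.5, 16.5 and 22.2 CPM in MEF2A 1 to 4, did not overlap between the groups. Both YAP5SA_MEF2A libraries lay above every MEF2A library for 25 members, against 22.8% of all genes, and the members' median log2 fold change was 0.63, against 0.05 over all genes. With 1 library left out, 1 to 8 members were called: 1 without either YAP5SA_MEF2A library, 2 without MEF2A 1, 2 or 3, 3 without MEF2A 4 and 8 without YAP5SA 2. The share of all genes called in each of these fits is not given here, so these counts do not set the members apart.

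YAP5SA_MEF2A against YAP5SA asked whether MEF2A changed the response to YAP5SA. edgeR called 0 members and 0.0% of all genes, with 1 member higher and 2 lower at an unadjusted p under 0.05, and DESeq2 and limma-voom called 0 members. Of the 44 members 36 had a negative log2 fold change, with a median of -0.34 against 0.01 over all genes. The YAP5SA libraries here are those in which 19 members had been called higher, so a negative sign of those 19 is partly set by that choice. All 8 macrophage markers (median -1.68) and all 8 fibroblast markers (median -0.44) were negative too, and none was called. The macrophage markers summed to 81.3 and 80.1 CPM in YAP5SA_MEF2A 1 and 2, against 161, 74.5 and 734 CPM in YAP5SA 1, 2 and 3, and the part of these cells in the members' values was not tested. Anxa2 had 86.1 and 82 CPM in YAP5SA_MEF2A 1 and 2, against 260.3, 87.1 and 226 CPM in YAP5SA 1, 2 and 3 (-1.22 ± 0.43, adjusted p = 1). Lima1 had 133 and 169.8 CPM in YAP5SA_MEF2A 1 and 2, against 75.7, 117 and 53 CPM in YAP5SA 1, 2 and 3 (0.81 ± 0.26, adjusted p = 1). In both cases YAP5SA 2 was the YAP5SA library nearest to the YAP5SA_MEF2A libraries. Both YAP5SA_MEF2A libraries lay above every YAP5SA library for 4 members (Lmo7, Tln2, Lima1 and Myl12b), against 11.2% of all genes, and below for 3 (Anxa2, Itgb5 and Diaph1), against 8.79%. Without YAP5SA 2, edgeR called Itgb1 and Anxa2 lower and Lima1 higher. The YAP5SA_MEF2A libraries were female and the YAP5SA libraries male, so sex and the second virus cannot be told apart in this comparison.

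The interaction of both viruses, the difference between YAP5SA_MEF2A and YAP5SA minus that between MEF2A and Control, was past the threshold for 0 of 44 members and 0.0% of all genes by edgeR, with 0 members positive and 1 negative at an unadjusted p under 0.05. DESeq2 and limma-voom also called 0 members. The members' median was -0.18, against 0.01 over all genes.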

How the data were processed

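Whole-number read counts per Ensembl gene were deposited by the authors for 14 libraries, not normalized. Per the labels' protocols, RNA of isolated nuclei was made into polyA-selected, non-directional libraries. STAR, edgeR and limma, with genome build GRCm38, are named in the submitters' processing notes, while the program that counted reads, whether it used strand, and all versions are not given in the sources used here. Reads of overlapping genes therefore cannot be told apart.

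Genes were named through GENCODE vM21 by gene ID (54409 of 54446 had a symbol). The labels gave each library's group, number and batch. Counts were tested in R 4.3.3 with edgeR 4.0.16 (filterByExpr, minimum count 10, minimum total 15, TMM, robust quasi-likelihood F-test, two-sided). The model had terms for group and batch and took all 14 libraries. Variation was estimated for each gene, across all groups. The common biological coefficient of variation, a summary over genes, was 0.503. Of every group 2 libraries were in batch 1, and the rest, none of them YAP5SA_MEF2A, in batch 2. Calls used an adjusted p under 0.05. DESeq2 1.42.0 and limma-voom (limma 3.58.1) were alternatives, as were other scalings, filters and samples. The fit was tested on simulated counts.

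The 44 members and the related and marker lists were chosen with earlier results of these data known. Named in full were members called in any comparison and 1 or 2 uncalled members of each role with high CPM, with Tpm2 and Anxa2 among them. From related lists the rule took at most 3 called genes with the smallest p, and 1 list is not reported here. Promoter sequences came from RefSeq (GRCm38.p6).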

Additional observations from a re-analysis of the deposited data

Results flagged for a closer look

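In 10 of 87 groups of 4 or 5 libraries, 1 library lay far from the others for a member, by its gap to the nearest library relative to the range of the group. The cutoffs are meant to flag about 1 in 20 groups of independent, normally distributed values. Members share their libraries here, and an excess over that rate was not tested. Control 3 was high for 4 members. It had 4414 CPM for Tpm1 (other Controls 1121 to 1687 CPM), 1808 CPM for Flna (801 to 999 CPM), 668 CPM for Pdlim5 (359 to 437 CPM) and 197 CPM for Itgb5 (60.8 to 73.8 CPM). Control 1 was low for Pfn1 at 60.1 CPM (82.7 to 89.3 CPM), and Control 4 was high for Diaph3 at 5.31 CPM (0 to 0.809 CPM). MEF2A 3 was low for Actg1 at 814 CPM (1398 to 1463 CPM in the other MEF2A libraries), high for Myh10 at 98 CPM (80.8 to 82.7 CPM) and high for the sparsely counted Myl12b at 1.63 CPM (0 to 0.187 CPM). MEF2A 2 was high for Cnn1 at 2.31 CPM (1.74 to 1.82 CPM).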

How the results depend on the processing

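Over 27 alternatives, the 26 gene-level calls kept their direction in all 702 values, 543 of them still called and 159 not, with 0 reversed. For YAP5SA against Control, 19 members called became 22 with DESeq2 (21 higher and Actg1 lower), 8 with only the groups compared, 7 in batch 1 only, 0 without Controls 1 and 2 and YAP5SA 3 (edgeR, 15 at an unadjusted p under 0.05), and 5 to 24 with 1 library left out. For MEF2A against Control, 0 became 5 without a filter on low counts and 3 in batch 1 only, and stayed 0 with 1 library left out. For YAP5SA_MEF2A against Control, 2 became 8 with library totals only, 10 without the filter, 5 with DESeq2, with limma-voom, without a batch term and in batch 1 only, 6 with only the groups compared, 4 with mitochondrially encoded genes left out, 1 with a sex term and without Controls 1 and 2, 0 without these Controls and YAP5SA 3, and 0 to 5 with 1 library left out. For YAP5SA_MEF2A against MEF2A, 5 became 8 with library totals only and without Controls 1 and 2, 12 without the filter, 9 with DESeq2, 20 with only the groups compared, 1 in batch 1 only, 3 with a sex term and without Controls 1 and 2 and YAP5SA 3, and 1 to 8 with 1 library left out. For YAP5SA_MEF2A against YAP5SA and for the interaction, 0 became 1 without the filter, and with 1 library left out they gave 0 to 3 and 0. Shares of all genes called are not given beside these counts, which therefore do not set the members apart from other genes. The cause of these changes was not tested.

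Same-numbered libraries of different groups did not vary together (correlations of -0.184 to 0.0894), and the main model did not pair them. With so few libraries a group, these correlations cannot settle whether the numbers mark pairs. With the replicate number as a block in place of batch, 9 members were called in YAP5SA against Control, 3 in YAP5SA_MEF2A against MEF2A and 2 in YAP5SA_MEF2A against Control. Depth limits the members under 5 CPM (Diaph3, Cnn1, Myl12b and Tagln), whose SEs were 0.70 or more.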
